A study of Mus musculus with 9 samples.

Results

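The levels of 10 long noncoding RNAs (lncRNAs) of neural development, Sox2ot, Six3os1, Dlx6os1, Dlx1as, Rmst, Pantr1, Miat, Malat1, Neat1 and Snhg11, were compared between zones of the embryonic mouse hypothalamus. They were picked by symbol, as noncoding RNAs that lie beside neural transcription factor genes or are abundant in nuclei. All 10 had a row among the 38195 gene symbols of the deposited table, 8 under the listed symbol and 2 under an older one (Dlx6os1 as Dlx6as1 and Pantr1 as 2610017I09Rik). The tissue was hypothalamus of the outbred CD-1 strain at E12.5 (embryonic day), and the labels name no mutation or treatment. The groups were the ventricular zone (VZ), which lines the ventricle, the medial mantle zone (mMZ) beside it, and the lateral mantle zone (lMZ) at the outside, microdissected from slices, with 3 libraries each. The series' design note describes a search for genes particular to a region of the developing hypothalamus.

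lncRNAs are transcripts without a long open reading frame. Many of those active in the embryonic brain are transcribed next to, or across, a gene for a transcription factor, and some of them alter the activity of that gene. Others stay in the nucleus and build or occupy nuclear bodies: Malat1 collects in nuclear speckles, which store splicing factors, Neat1 is the scaffold of paraspeckles, and Miat, also called Gomafu, forms its own foci in neurons and their precursors.

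Marker levels differed between the zones. The summed level of 8 progenitor markers was 883 to 1891 FPKM (fragments per kilobase of transcript, scaled to library size) in VZ, 827 to 966 in mMZ and 51.1 to 96.6 in lMZ libraries. That of 8 neuron markers was 533 to 1151 in VZ, 1131 to 1327 in mMZ and 1482 to 1713 in lMZ libraries. VZ replicate 2 had the lowest progenitor sum (883) and the highest neuron sum (1151) of its zone, both within the range of mMZ. Red cell markers summed to 1256 to 1296 FPKM in VZ, 946 to 1603 in mMZ and 76.7 to 324 in lMZ libraries, and microglia markers to 5.31 to 15.1 in VZ, 7.36 to 17.8 in mMZ and 27.2 to 33.6 in lMZ. Thalamus markers, of a neighbouring region, summed to 13.8 to 26.2 FPKM in VZ, 16.98 to 28.4 in mMZ and 1.26 to 7.07 in lMZ libraries, and those of the telencephalon to 10.4 to 24.0 in VZ, 13.5 to 39.2 in mMZ and 3.93 to 46.1 in lMZ. All 6 hypothalamus markers had a row, and they summed to 102 to 314 FPKM in VZ, 344 to 451 in mMZ and 160 to 527 in lMZ libraries. In VZ replicate 3, 2 of the 6 were listed at 0. Nkx2-1 was at 41.5 to 191 FPKM in VZ, 40.2 to 146 in mMZ and 11.7 to 35.9 in lMZ libraries, and Otp averaged 70.6 FPKM in VZ, 262 in mMZ and 325 in lMZ, while Rax was listed at 0 in all 3 lMZ libraries. The part of these markers in the lncRNA differences was not tested. The depth implied by the step between low FPKM values was 4420161 to 8817318 fragments in 7 libraries, but 261258 in VZ replicate 3 and 539556 in mMZ replicate 3. In bulk tissue, fewer cells of a type and less RNA per cell cannot be told apart. The labels do not say whether libraries came from separate embryos, so p-values measure only the spread between these libraries.

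Each lncRNA was placed on the GRCm38 build with GENCODE M21. Sox2ot runs on the plus strand of chromosome 3 from 34104270 to 34682619, and the single-exon gene Sox2 lies inside its span on the same strand, with no shared exonic base. Six3os1 (chromosome 17, 85600651 to 85618398, minus strand) overlaps the opposite-strand gene Six3, and 106 exonic bases are shared. Dlx6os1 (chromosome 6, 6820189 to 6871592, minus strand) spans the opposite-strand gene Dlx6 without a shared exonic base and starts 6213 bases from Dlx5. Dlx1as (chromosome 2, 71516454 to 71537891, minus strand) spans Dlx1, shares 335 exonic bases with it, 20.6% of its own exons, and starts 5517 bases from Dlx2. The span of Dlx1as also overlaps the opposite-strand coding gene Metap1d, with no shared exonic base. Pantr1 (chromosome 1, 42590782 to 42694842, minus strand) starts 926 bases from Pou3f3, which is transcribed in the opposite direction. Rmst (chromosome 10, 92071037 to 92165170, minus strand) has no coding gene within 100 kb, and the nearest coding gene considered, Nedd1, is 519576 bases away.

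The nuclear RNAs stand apart from transcription factor genes. Miat is on chromosome 5 (112213228 to 112229395, minus strand), 17098 bases from the lens crystallin gene Cryba4. Malat1 (5795690 to 5802672) and Neat1 (5824708 to 5845478) lie near each other on the minus strand of chromosome 19, and Frmd8 lies 4224 bases from Neat1. Snhg11 is on chromosome 2 (158375638 to 158386145, plus strand), 23703 bases from Ralgapb, and is typed as protein coding in GENCODE M21 but as an lncRNA in RefSeq. The library kit does not mark strand, so reads from shared exons of opposite genes cannot be told apart. This applies to Six3os1, Dlx1as, Miat, Rmst, Malat1 and Dlx6os1. In Miat, 24.3% of the exonic bases are shared with the opposite-strand Gm26953, and in Rmst 26.3% are shared with Gm26700. Malat1 shares 453 exonic bases (6.49%) with the opposite-strand Gm37376. Dlx6os1 shares 180 with Gm27699 and 207 with Gm27905, both on the opposite strand. Besides Six3, Six3os1 shares exonic bases with further opposite-strand entries. The largest of these overlaps are 323 bases with Gm27283, 272 with Gm27275 and 223 with Gm27801.

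**Figure D1:**
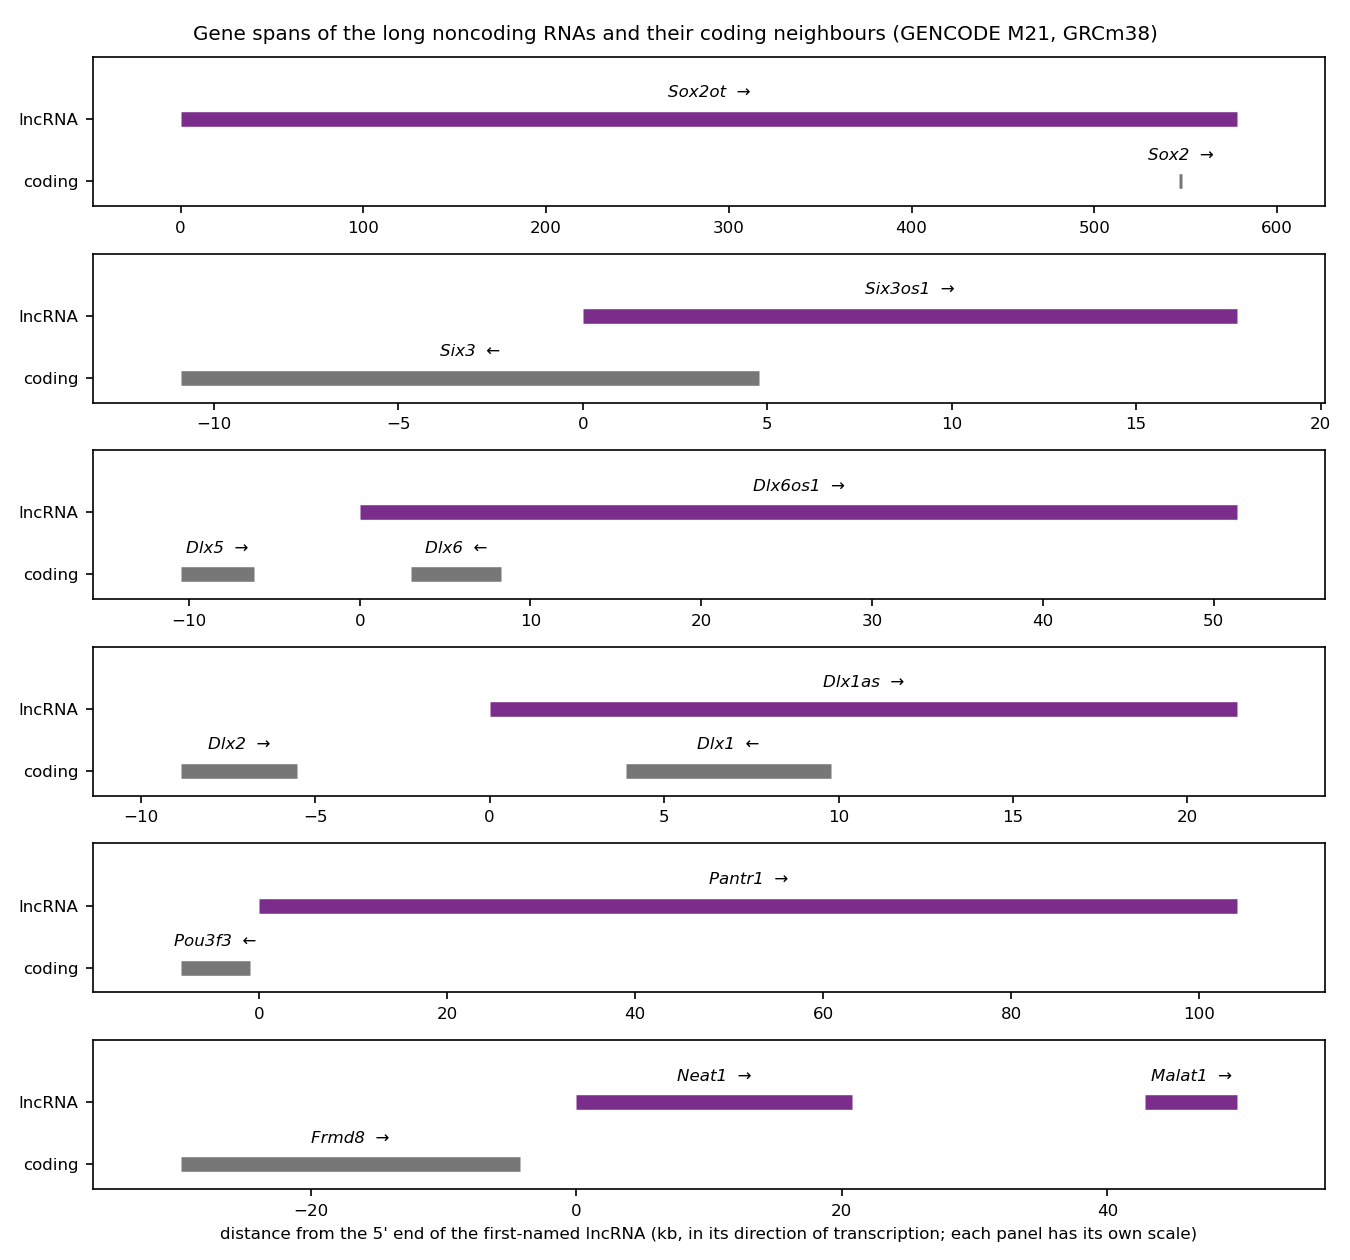
Annotated spans of 7 of the lncRNAs (purple) and their coding neighbours (grey), in kb from the 5′ end of the first-named lncRNA of each panel, with arrows for the direction relative to it. Metap1d, whose span overlaps that of Dlx1as, is not drawn. Sox2 lies within Sox2ot, Dlx6 within Dlx6os1 and Dlx1 within Dlx1as, while Pantr1 and Pou3f3 point away from each other across 926 bases.

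The sequence for which Miat is known is a repeat of ACUAAC, the branch-point consensus that the splicing factor SF1 binds. The longest Miat transcript (9163 bases) holds 11 copies of the letters ACTAAC between bases 4942 and 6852. Of 7040 annotated transcripts of at least 5000 bases, 13 held at least as many (0.185%), 2 of them from Miat, and the median was 1. The longest transcripts of the other members held at most 4 copies, in Neat1. The 2 densest stretches are shown because they carry this repeat, with the copies in capitals and both read in the sense of the RNA, on the minus strand of GRCm38 at chr5:112217314-112217454 and chr5:112216757-112216872.
Miat cluster 1: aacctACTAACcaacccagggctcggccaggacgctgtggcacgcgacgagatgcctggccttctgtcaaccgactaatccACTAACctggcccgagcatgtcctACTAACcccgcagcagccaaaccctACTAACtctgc
Miat cluster 2: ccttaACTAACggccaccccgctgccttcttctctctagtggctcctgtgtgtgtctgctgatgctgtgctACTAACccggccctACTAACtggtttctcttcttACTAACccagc

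Malat1 has a run of adenines near its 3′ end that pairs with upstream uridine-rich stretches in a triple helix, a structure known to protect this RNA, which carries no conventional poly(A) tail. The run is 12 bases long and ends 298 bases before the end of the annotated transcript, and it is shown in capitals with its upstream thymine-rich stretch (minus strand, chr19:5795968-5796059).
Malat1: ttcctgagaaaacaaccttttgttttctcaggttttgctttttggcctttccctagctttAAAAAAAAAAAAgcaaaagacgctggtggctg

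Differences between zones were taken on the log2(FPKM + 1) scale and tested with limma over all genes, and a call means a Benjamini-Hochberg adjusted p under 0.05. For VZ over lMZ, 3 of the 9 lncRNAs that passed the filter on low values were higher (Sox2ot, Rmst and Miat), against 10.7% of all 14004 genes, and 1 was lower (Snhg11), against 8.93%. For mMZ over lMZ, 2 were higher (Sox2ot and Six3os1), against 3.58% of all genes, and none was lower, against 0.543%. For VZ over mMZ no member passed, and no gene did (0.0%), by limma on all 9 libraries. At an unadjusted p under 0.05 there were 1661 genes, 2 members among them, and the count of adjusted calls was 0 to 9 genes under the other scalings, filters and pseudocounts, 2761 genes with library weights and 571 genes without VZ replicate 2. The moderated F test over the 3 zones passed for Sox2ot (limma adjusted p = 0.00788), Six3os1 (0.022) and Miat (0.0432), or 3 of 9, against 10.7% of genes. The median difference of the 9 was -0.04 for VZ over mMZ, 1.44 for VZ over lMZ and 0.90 for mMZ over lMZ, and that of all genes tested was -0.05, 0.05 and 0.10.

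By library ranges alone, 4 members were higher in VZ than in lMZ without overlap (Sox2ot, Rmst, Miat and Pantr1), against 25.2% of genes, and 1 was lower (Snhg11), against 19.9%. Between mMZ and lMZ, 5 were higher without overlap (Sox2ot, Six3os1, Dlx6os1, Dlx1as and Rmst), against 25.7%, and 1 was lower (Snhg11), against 14.8%. Between VZ and mMZ, none was higher, against 5.36%, and 1 was lower (Six3os1), against 9.3%. The 4 lncRNAs annotated across Sox2, Six3, Dlx6 or Dlx1 were all among the 5 with every mMZ library above every lMZ library.

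**Figure D2:**
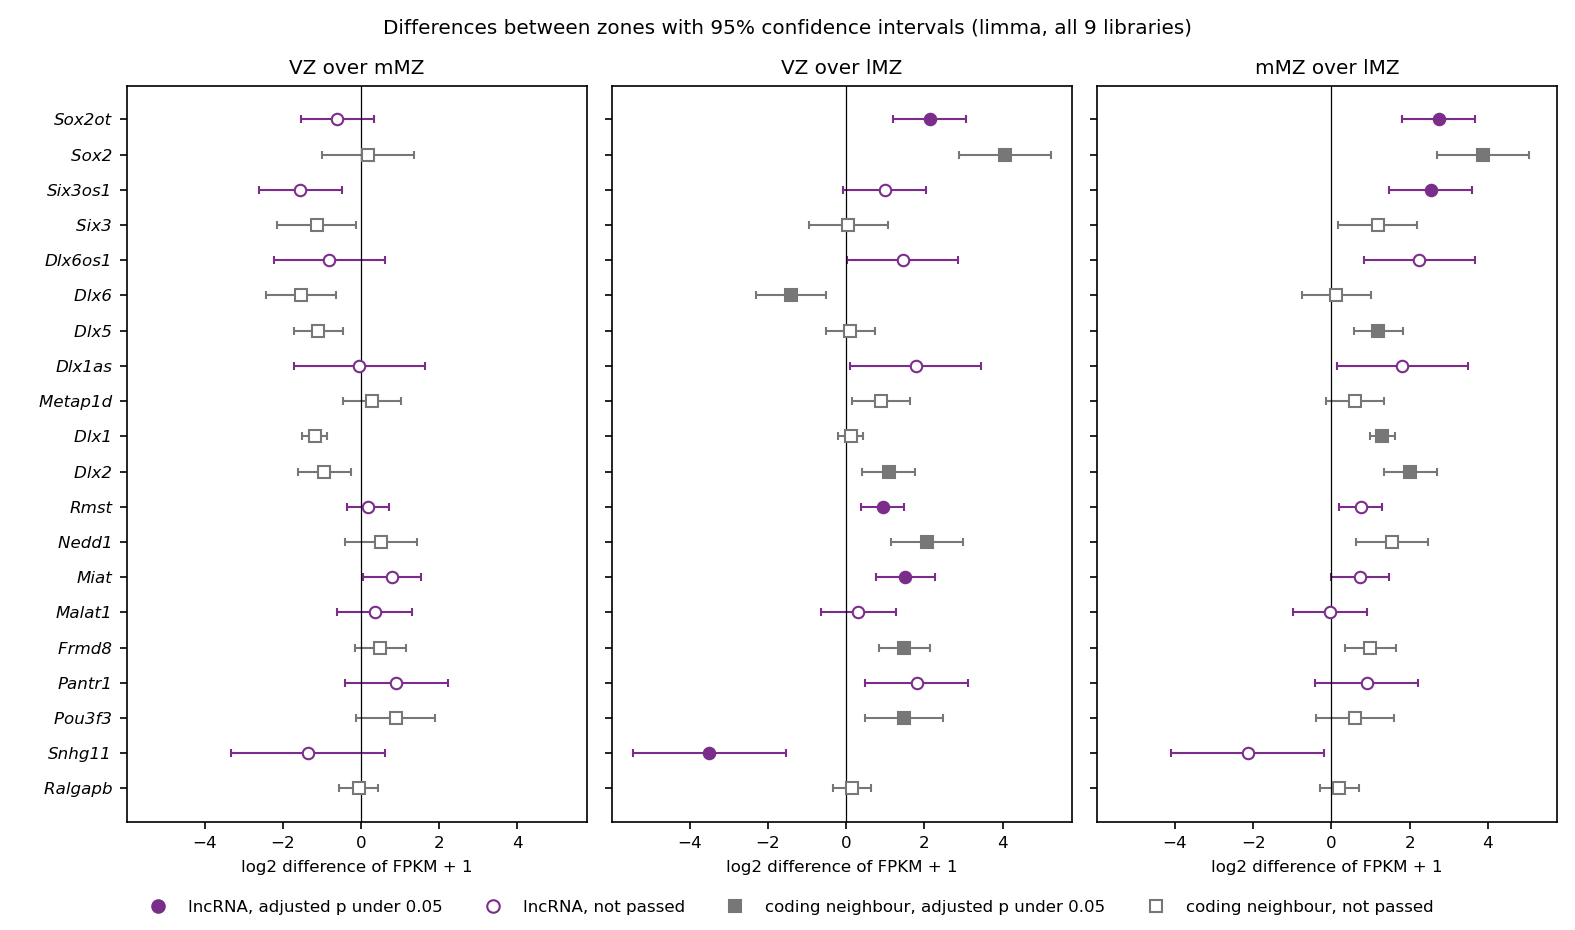
Log2 differences of FPKM + 1 between zones from limma, with 95% confidence intervals, for the 9 tested lncRNAs (circles) and their coding neighbours (squares), filled where the adjusted p was under 0.05. No filled symbol stands in the VZ over mMZ panel, and Sox2ot and Sox2 are filled in both other panels.

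Miat was the most abundant of the 10 in these messenger RNA libraries and the 88th of 38195 symbols by mean level, above Malat1 at rank 930. How far such libraries capture Malat1, which carries no conventional poly(A) tail, was not tested. The Miat level was 1068, 554 and 733 FPKM in VZ replicates 1, 2 and 3, 465, 629.6 and 285 in mMZ, and 193, 297 and 320 in lMZ. All VZ libraries lay above all lMZ libraries, while mMZ overlapped both. The VZ over lMZ difference was 1.52 ± 0.33 (SE; limma adjusted p = 0.0152), and Miat was higher in VZ by 2.90-fold in mean FPKM. The VZ over mMZ difference (0.79, adjusted p = 0.409) and the mMZ over lMZ difference (0.72, adjusted p = 0.255) did not pass. The VZ over lMZ call was lost without VZ replicate 1 (adjusted p = 0.0555) and without lMZ replicate 1 (adjusted p = 0.0665), and held without VZ replicate 3 and mMZ replicate 3 together (adjusted p = 0.0122).

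No Malat1 difference between zones passed. Its level was 91.0, 51.4 and 125 FPKM in VZ, 41.0, 52.8 and 129.8 in mMZ, and 55.5, 76.2 and 72.3 in lMZ. The highest value of VZ and that of mMZ were both from the shallow replicates numbered 3, and all 3 zones overlapped. The VZ over lMZ difference was 0.31, with a 95% confidence interval from -0.65 to 1.27 (limma adjusted p = 0.627), an interval that holds a 2-fold higher level in VZ but not a 2-fold lower one. The mMZ over lMZ difference was -0.04 with an interval from -0.99 to 0.92.

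Neat1, from the same stretch of chromosome 19, was near the floor in these messenger RNA libraries. It had 0.813 and 0.614 FPKM in VZ replicates 1 and 2 and was listed at 0 in VZ replicate 3, had 0.486, 0.691 and 0.169 FPKM in mMZ, and 0.243, 0.564 and 0.0740 FPKM in lMZ. It was the only member below the filter of at least 1 FPKM in at least 3 libraries, and so was not tested. Its longest transcript of 20771 bases would have carried 97.9 implied fragments in VZ replicate 1, 1.89 in mMZ replicate 3 and none in VZ replicate 3, so its level in the shallow libraries is not resolved.

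Genes for proteins of the nuclear bodies were measured beside these RNAs. Of 14 paraspeckle proteins, 9 were higher in VZ than in lMZ and none lower, against 10.7% and 8.93% of all genes, with a median difference of 0.70. Sfpq, which builds paraspeckles with Nono, was higher by 0.93 (limma adjusted p = 0.00434) and Taf15 by 0.94 (adjusted p = 0.00524), while Hnrnpk (0.55, adjusted p = 0.0647) did not pass. Pspc1, another of the 14, had a negative difference that did not pass (-0.50, limma adjusted p = 0.0623). Of 14 nuclear speckle proteins, 5 were higher in VZ than in lMZ and none lower, with a median of 0.53, led by the splicing factor Srsf6 (1.05, adjusted p = 0.00308). Among 7 splicing factors, some reported to bind Miat repeats and others only related, 2 were higher in VZ than in lMZ. These were Ptbp1 (2.15, limma adjusted p = 0.000851) and the ACUAAC-binding Sf1 (0.79, adjusted p = 0.017). For VZ over mMZ, no gene of these lists passed by limma, and 2 in each list had an unadjusted p under 0.05. The median of all 14004 genes tested was 0.05 for VZ over lMZ.

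Snhg11, a host gene of a small nucleolar RNA that is expressed in neurons, had its lowest mean in VZ and its highest in lMZ. It had 3.30, 28.1 and 0.629 FPKM in VZ, 20.9, 19.3 and 6.67 in mMZ, and 56.0, 91.6 and 54.6 in lMZ. Every lMZ library lay above every VZ and every mMZ library, and VZ and mMZ overlapped. Snhg11 was lower in VZ than in lMZ, by -3.50 ± 0.88 (limma adjusted p = 0.0242), while mMZ over lMZ (-2.14, adjusted p = 0.206) and VZ over mMZ (-1.36, adjusted p = 0.527) did not pass. VZ replicate 2, the highest of its zone for Snhg11, was also the highest of its zone in the neuron marker sum, and the part of that in the result was not tested. The value in VZ replicate 3 stands for 0.963 implied fragments. Without VZ replicate 1 or lMZ replicates 1, 2 or 3 the VZ over lMZ call was lost (limma adjusted p = 0.0759, 0.0706, 0.0877 and 0.0613). It was also lost with no filter on low values (limma adjusted p = 0.0553) and with only VZ and lMZ in the fit (0.0518), and without VZ replicate 3 and mMZ replicate 3 together it held at a smaller difference of -2.57 (adjusted p = 0.0259). Without VZ replicate 2 all the Snhg11 comparisons passed, with VZ over mMZ at -2.51 (adjusted p = 0.0403) and mMZ over lMZ at -2.14 (adjusted p = 0.0377).

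**Figure D3:**
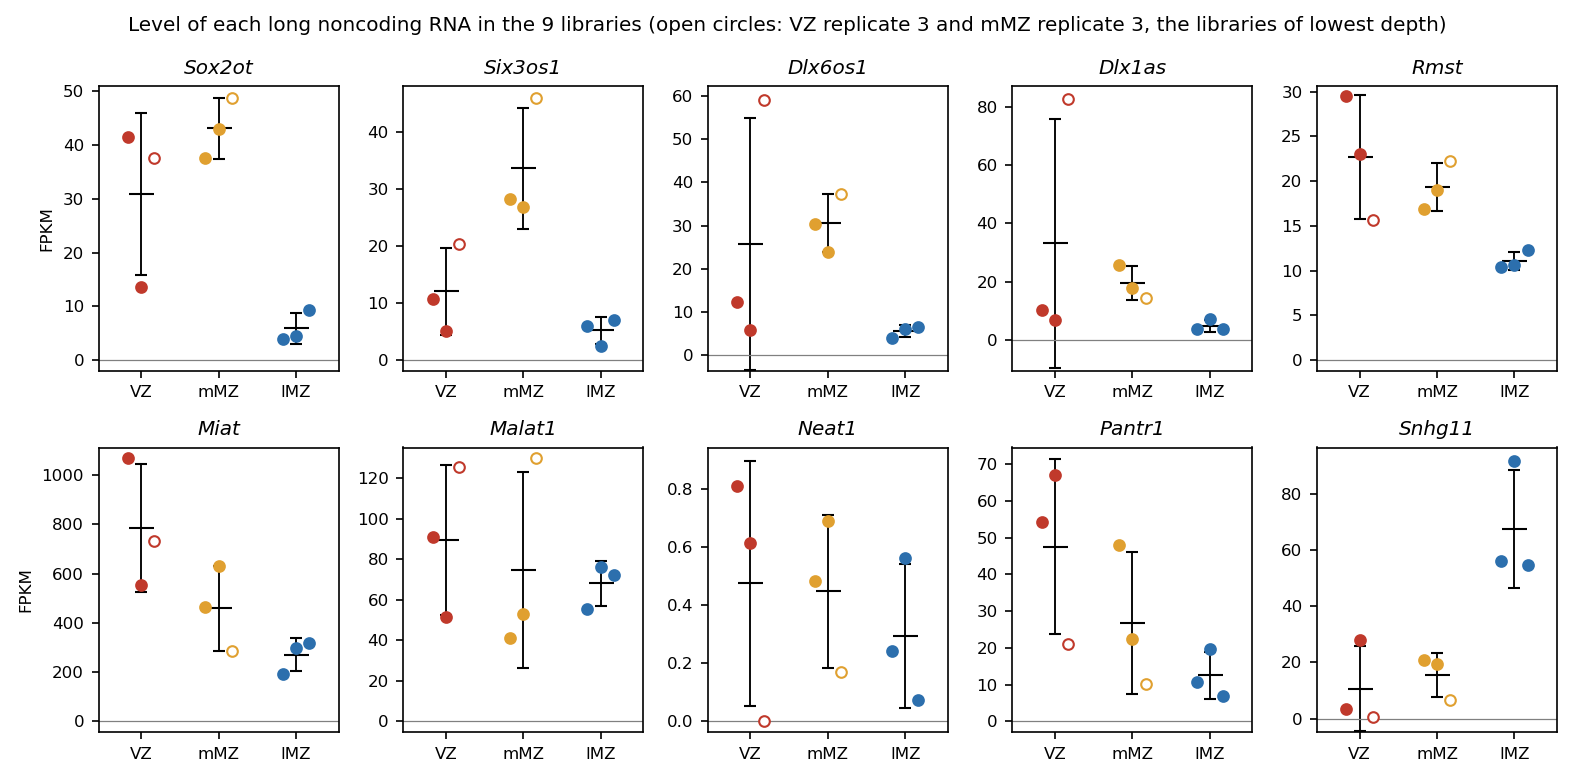
FPKM of each lncRNA in the 9 libraries by zone, on a linear axis per gene, with each circle a library and black bars the mean and SD of 3 libraries. Sox2ot and Six3os1 were high in mMZ and low in lMZ, Miat averaged 785 FPKM in VZ, 459.8 in mMZ and 270.3 in lMZ, and Snhg11 was highest in lMZ.

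Sox2ot, the transcript that surrounds Sox2, had the smallest adjusted p of the members for VZ over lMZ and for mMZ over lMZ. Sox2 encodes a factor that keeps neural progenitors undifferentiated, and Sox2ot is known from the embryonic brain as its overlapping RNA. Sox2ot measured 41.5, 13.5 and 37.6 FPKM in VZ, 37.5, 43.1 and 48.7 in mMZ, and 3.88, 4.55 and 9.26 in lMZ. All VZ and all mMZ libraries lay above all lMZ libraries, and VZ and mMZ overlapped, with VZ replicate 2 the lowest of the medial libraries. Sox2ot was higher in VZ than in lMZ by 2.14 ± 0.42 (limma adjusted p = 0.00931) and in mMZ than in lMZ by 2.75 ± 0.42 (adjusted p = 0.00761), while VZ over mMZ (-0.61, adjusted p = 0.553) did not pass. Both calls held in all 20 alternative settings, each library left out included. VZ replicate 2, the VZ library lowest in Sox2ot, was also the lowest of its zone in the progenitor sum.

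Sox2 itself differed more between zones. Its level was 128, 72.8 and 211 FPKM in VZ, 112, 105 and 115 in mMZ, and 5.43, 2.80 and 17.04 in lMZ. The Sox2 differences were 4.06 ± 0.53 for VZ over lMZ (limma adjusted p = 0.00161) and 3.87 ± 0.53 for mMZ over lMZ (adjusted p = 0.00484). The log2 ratio of Sox2ot to Sox2 was -2.14 ± 0.46 in VZ, -1.35 ± 0.18 in mMZ and -0.22 ± 0.70 in lMZ (SD, n = 3 each). Sox2ot was thus the rarer transcript in all VZ and mMZ libraries, and in lMZ replicate 2 it was above Sox2 (log2 ratio 0.55). An exact permutation test over all assignments of the libraries to zones gave p = 0.00357 for unequal ratios, the smallest it can give, and 0.0429 after Benjamini-Hochberg adjustment over 12 lncRNA and neighbour pairs. This was the only pair of the 12 to pass, and it no longer passed without VZ replicate 3 (adjusted p = 0.0857), mMZ replicate 2 (0.171), mMZ replicate 3 (0.129), lMZ replicate 2 (0.129), or VZ replicate 3 with mMZ replicate 3 (0.143), by the same exact permutation test. With both left out, too few assignments remain for a lone pair to pass after adjustment, so that loss was fixed in advance.

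Six3os1 was highest in mMZ. It is the opposite-strand partner of Six3, a homeobox gene of the anterior forebrain and eye, and in the mouse retina it is known to act with Six3. Six3os1 levels were 10.6, 5.14 and 20.3 FPKM in VZ, 28.3, 26.8 and 45.9 in mMZ, and 6.01, 2.48 and 7.03 in lMZ. All mMZ libraries lay above all libraries of VZ and of lMZ, and VZ and lMZ overlapped. Six3os1 was higher in mMZ than in lMZ by 2.54 ± 0.47 (limma adjusted p = 0.0175), whereas VZ over mMZ (-1.55, adjusted p = 0.393) and VZ over lMZ (0.99, adjusted p = 0.165) did not pass. The call was lost without mMZ replicates 1, 2 or 3 (adjusted p = 0.0527, 0.0568 and 0.0797) and without lMZ replicates 1 or 2 (0.0562 and 0.0795), at differences of 2.17 to 2.67. Without VZ replicate 2, VZ over lMZ passed at 1.44 (limma adjusted p = 0.0362). With VZ replicate 3 left out instead, that difference fell to 0.54 and did not pass (limma adjusted p = 0.412).

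Six3 had the same order of zone means. It measured 17.1, 7.83 and 25.3 FPKM in VZ, 53.8, 33.9 and 22.4 in mMZ, and 16.5, 9.29 and 20.01 in lMZ. Six3 did not pass for mMZ over lMZ (1.19, limma adjusted p = 0.176) or VZ over mMZ (-1.14, adjusted p = 0.393). The log2 ratio of Six3os1 to Six3 was -0.49 ± 0.17 in VZ, -0.08 ± 0.98 in mMZ and -1.42 ± 0.13 in lMZ (SD, n = 3 each). Every lMZ ratio lay below every VZ and mMZ ratio, but the pair did not pass after adjustment (exact permutation test, p = 0.0464, adjusted p = 0.186).

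Dlx6os1 and Dlx1as lie in the paired Dlx clusters, whose homeobox factors specify inhibitory neurons of the ventral forebrain and hypothalamus. Dlx6os1, also called Evf2, is known to bring DLX proteins to the enhancers between Dlx5 and Dlx6. The table gave it 12.3, 5.94 and 59.1 FPKM in VZ, 30.3, 23.9 and 37.3 in mMZ, and 4.14, 6.13 and 6.59 in lMZ. All mMZ libraries were above all lMZ libraries, and VZ overlapped both because VZ replicate 2 was at the lMZ level and VZ replicate 3 was the highest of all 9. No Dlx6os1 comparison passed with all 9 libraries, with differences of 2.25 ± 0.64 for mMZ over lMZ (limma adjusted p = 0.0875), 1.44 ± 0.64 for VZ over lMZ (adjusted p = 0.137) and -0.81 ± 0.64 for VZ over mMZ (adjusted p = 0.602). Without VZ replicate 3, mMZ over lMZ passed at the same difference (adjusted p = 0.00244), and without VZ replicate 2, VZ over lMZ passed at 2.12 (adjusted p = 0.0203). With VZ replicate 3 left out instead, the VZ over lMZ difference fell to 0.56 and did not pass (limma adjusted p = 0.262).

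The coding genes of that cluster were also highest in mMZ by mean level. Dlx5 had 9.23, 13.6 and 19.99 FPKM in VZ, 37.4, 26.7 and 27.6 in mMZ, and 14.2, 10.4 and 13.7 in lMZ, and was higher in mMZ than in lMZ by 1.20 (limma adjusted p = 0.0451). This call was lost in 11 of 20 alternative settings, the omission of any mMZ or lMZ library among them (limma adjusted p up to 0.192). Dlx6, with 5.63, 14.4 and 3.50 FPKM in VZ, 25.3, 17.3 and 22.3 in mMZ, and 20.7, 21.8 and 16.3 in lMZ, was lower in VZ than in lMZ by -1.41 (adjusted p = 0.0353). The Dlx6 call was lost in 10 of 20 settings, among them without VZ replicates 1 or 3, mMZ replicates 1 or 2, or any lMZ library (limma adjusted p up to 0.116). For VZ over lMZ, Dlx6os1 had a positive difference that did not pass and Dlx6 a negative one. The log2 ratio of the pair was 1.20 ± 2.45 in VZ, 0.47 ± 0.23 in mMZ and -1.65 ± 0.44 in lMZ (SD, n = 3 each). In VZ replicates 1, 2 and 3 it was 1.01, -1.15 and 3.74. The Dlx6 value of 3.50 FPKM in VZ replicate 3 is near the floor. In that library 1 fragment on 1 kb stands for an estimated 3.83 FPKM, and Dlx6 has 2375 exonic bases. The ratios did not pass over all libraries (exact permutation test, p = 0.121, adjusted p = 0.243 for Dlx6, and p = 0.214, adjusted p = 0.321 for Dlx5), but passed without VZ replicate 2 (adjusted p = 0.0343 for both). That was 1 of 13 alternative settings, and neither ratio passed in the others. Without VZ replicate 3 the VZ over lMZ gap fell from 2.85 to 1.58 for Dlx6 (exact permutation test, adjusted p = 0.182). For Dlx5 it fell from 1.34 to 0.71 (adjusted p = 0.281 by the same test).

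Dlx1as, antisense to Dlx1, varied as widely within VZ as Dlx6os1. Loss of this RNA in mice is known to raise Dlx1 modestly. Dlx1as had 10.1, 6.75 and 82.6 FPKM in VZ, 25.8, 18.0 and 14.4 in mMZ, and 3.78, 7.23 and 3.55 in lMZ. The mMZ libraries were all above the lMZ libraries, and VZ replicate 3 was more than 3 times the next library. That value stands for 15.1 implied fragments on the longest transcript of 700 bases, and the mMZ replicate 3 value for 5.44. Neither mMZ over lMZ (1.82 ± 0.75, limma adjusted p = 0.208) nor VZ over lMZ (1.78 ± 0.75, adjusted p = 0.121) passed. Without VZ replicate 3, mMZ over lMZ passed at the same difference (adjusted p = 0.00789), and without VZ replicate 2, VZ over lMZ passed at 2.44 (adjusted p = 0.0347). With VZ replicate 3 left out instead, the VZ over lMZ difference fell to 0.72 and did not pass (limma adjusted p = 0.178).

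Dlx1 was above Dlx1as in all 9 libraries, and Dlx2 in all but VZ replicate 3, where Dlx2 had 73.1 FPKM and Dlx1as 82.6. Dlx1 had 96.6, 82.7 and 105 FPKM in VZ, 236, 202 and 211 in mMZ, and 87.0, 94.1 and 80.4 in lMZ, and was higher in mMZ than in lMZ by 1.30 ± 0.14 (limma adjusted p = 0.0023). Every VZ library lay below every mMZ library for Dlx1, and the VZ over mMZ difference of -1.19 did not pass (limma adjusted p = 0.0624). It passed in 5 of 20 alternative settings. Dlx2 was higher in mMZ than in lMZ by 2.02 (adjusted p = 0.00761) and in VZ than in lMZ by 1.08 (adjusted p = 0.0357). The VZ over lMZ call of Dlx2 was lost in 9 of 20 settings, among them without VZ replicate 1, mMZ replicates 1 or 2, or any lMZ library (limma adjusted p up to 0.115). The log2 ratio of Dlx1as to Dlx1 was -2.30 ± 1.71 in VZ, -3.45 ± 0.32 in mMZ and -3.97 ± 0.38 in lMZ (SD, n = 3 each), and did not pass (exact permutation test, p = 0.0679, adjusted p = 0.197). It passed without VZ replicate 2 (adjusted p = 0.0343 by the same exact permutation test), but in no other of 13 alternative settings. Without VZ replicate 3 the VZ over lMZ gap fell from 1.66 to 0.68 (exact permutation test, adjusted p = 0.182).

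Among the members, Dlx6os1 and Dlx1as were the most alike over the 9 libraries, with a root mean square difference of 0.507 between their centred log2 values. Of 9754 candidate genes, the nearest to Dlx6os1 were Gsx1 (0.355), a homeobox gene of ventral progenitors, Nkx2-3 (0.462) and Dlx2 (0.467), while Dlx5 ranked 850th and Dlx6 8559th. The nearest to Dlx1as were Tpmt (0.445), Cib1 (0.504) and Dlx6os1 (0.507), with Dlx2 at rank 93 and Dlx1 at rank 2823. These ranks rest on 9 libraries that share their depth differences, and both lncRNAs were highest in VZ replicate 3.

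Homeodomain proteins, the DLX factors among them, recognise the letters TAATTA, so the windows before the Dlx6os1 starts were searched for them on both strands (the letters read the same on both). RefSeq on GRCm38.p6 has 2 such windows, each from 250 bases before to 50 after a start, on the minus strand at chr6:6869484-6869783 and chr6:6861634-6861933. The first held 2 copies and the other 1, in capitals. Of 32851 such windows, 5.29% held at least 1 copy and 0.49% at least 2. The match describes these letters and shows no binding.
Dlx6os1 promoter 1: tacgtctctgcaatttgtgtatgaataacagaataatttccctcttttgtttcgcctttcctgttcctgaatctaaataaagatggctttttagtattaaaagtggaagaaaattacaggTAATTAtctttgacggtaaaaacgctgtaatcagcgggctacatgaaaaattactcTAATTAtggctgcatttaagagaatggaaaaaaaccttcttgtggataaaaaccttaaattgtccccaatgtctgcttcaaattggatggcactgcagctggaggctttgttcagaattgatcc
Dlx6os1 promoter 2: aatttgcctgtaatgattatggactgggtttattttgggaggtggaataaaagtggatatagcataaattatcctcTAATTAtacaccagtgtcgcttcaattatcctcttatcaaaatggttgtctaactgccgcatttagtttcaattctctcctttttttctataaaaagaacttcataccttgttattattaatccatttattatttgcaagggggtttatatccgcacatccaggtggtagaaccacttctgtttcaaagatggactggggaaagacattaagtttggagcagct

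Of 11 Dlx and GABAergic genes, 4 were higher in mMZ than in lMZ and none lower, against 3.58% and 0.543% of all genes, with a median difference of 0.90. The interneuron factor Lhx6 had the largest of these differences (2.70, limma adjusted p = 0.00181). The other genes called were Dlx1, Dlx2 and Dlx5, whose calls were given above as neighbours. For VZ over lMZ, 2 were higher and 3 lower, against 10.7% and 8.93% of all genes, the lower ones including Dlx6 and Gad1, a GABA-synthesising enzyme (-1.09, adjusted p = 0.0182). For VZ over mMZ none passed, as in all genes, and the median difference of the list was -1.13. At an unadjusted limma p under 0.05 there were 9 of the 11, against 1661 of all 14004 genes.

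The ratio of Pantr1 to Pou3f3 did not differ detectably between zones. Pou3f3 encodes a POU-domain factor of neural precursors and upper-layer neurons. Pantr1 had 54.3, 67.1 and 21.1 FPKM in VZ, 48.0, 22.3 and 10.2 in mMZ, and 10.9, 19.7 and 6.98 in lMZ. Each VZ library was above each lMZ library by the narrow margin of 21.1 against 19.7 FPKM, and mMZ overlapped both. The VZ over lMZ difference of 1.80 ± 0.59 did not pass with all 9 libraries (limma adjusted p = 0.0585), and it passed without VZ replicate 3 (2.29, adjusted p = 0.0283) or without VZ replicate 3 and mMZ replicate 3 (adjusted p = 0.00804). It also passed at the same difference without mMZ replicate 1 (limma adjusted p = 0.0456) or mMZ replicate 3 (0.0402). Without VZ replicates 1 or 2, mMZ replicate 2 or any lMZ library it did not pass (limma adjusted p = 0.0756 to 0.176). Of 20 alternative settings, it passed in 6. The VZ replicate 3 and mMZ replicate 3 values, the lowest of their zones, stand for 11.5 and 11.4 implied fragments.

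Pou3f3 had 68.1, 94.1 and 35.9 FPKM in VZ, 54.0, 28.4 and 22.8 in mMZ, and 15.6, 36.8 and 16.5 in lMZ, with VZ over lMZ at 1.49 ± 0.45 (limma adjusted p = 0.0441). The Pou3f3 call was lost in 10 of 20 settings, among them without VZ replicates 1 or 2, mMZ replicate 2, or lMZ replicates 1 or 3 (limma adjusted p up to 0.148). In VZ and in mMZ the libraries had the same order for Pantr1 and Pou3f3, and in lMZ replicate 2 was the highest for both. The log2 ratio of Pantr1 to Pou3f3 was -0.51 ± 0.21 in VZ, -0.53 ± 0.49 in mMZ and -0.83 ± 0.33 in lMZ (SD, n = 3 each; exact permutation test, p = 0.489, adjusted p = 0.534). Of 9754 candidates, Pou3f3 was the gene nearest to Pantr1 over the 9 libraries (root mean square difference 0.330), followed by Ltbp3 (0.450) and Pou3f4 (0.559), a paralogue of Pou3f3. For none of the 7 other members with ranked coding neighbours was a neighbour the nearest gene.

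The window before the Pou3f3 start is printed because these divergent transcripts were so alike over the libraries, and because Pantr1 starts 926 bases from the annotated Pou3f3 start. It is on the plus strand at chr1:42695518-42695817 of GRCm38.p6 in RefSeq. The letters CCAAT, the CCAAT box of many promoters, occur 3 times when both strands are searched, in capitals below. Of 32851 windows, 37.4% held at least 1 copy and 3.37% at least 3.
Pou3f3 promoter 1: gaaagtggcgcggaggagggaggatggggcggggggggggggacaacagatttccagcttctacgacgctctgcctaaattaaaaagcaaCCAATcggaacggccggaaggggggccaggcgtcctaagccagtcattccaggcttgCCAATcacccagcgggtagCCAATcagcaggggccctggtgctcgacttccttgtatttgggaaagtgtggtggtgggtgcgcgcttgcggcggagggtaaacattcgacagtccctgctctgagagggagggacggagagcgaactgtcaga

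Rmst, which in human neural progenitors binds SOX2 and takes part in neurogenesis, was higher in VZ than in lMZ. It had 29.5, 23.0 and 15.7 FPKM in VZ, 16.8, 18.98 and 22.2 in mMZ, and 10.4, 10.6 and 12.3 in lMZ. All VZ and all mMZ libraries lay above all lMZ libraries, and VZ and mMZ overlapped. The VZ replicate 3 value, the lowest of its zone, stands for 11.8 implied fragments. Rmst was higher in VZ than in lMZ by 0.93 ± 0.24 (limma adjusted p = 0.0267), and mMZ over lMZ (0.74, adjusted p = 0.123) did not pass. The call was lost without VZ replicate 1 (adjusted p = 0.0857) and without lMZ replicates 1, 2 or 3 (0.0953, 0.091 and 0.0624), with quantile normalization (0.0604) and with only VZ and lMZ in the fit (0.0585), and held at 1.16 without VZ replicate 3 and mMZ replicate 3 together (adjusted p = 0.00295). Without VZ replicate 3 alone, mMZ over lMZ passed too (adjusted p = 0.0262). Nedd1, a centrosomal gene and the nearest coding gene considered, was higher in VZ than in lMZ by 2.07 ± 0.41 (limma adjusted p = 0.00983). The log2 ratio of Rmst to Nedd1 was 1.32 ± 1.08 in VZ, 1.65 ± 0.38 in mMZ and 2.46 ± 0.24 in lMZ (SD, n = 3 each). Every lMZ ratio lay above every VZ and mMZ ratio, but the pair did not pass (exact permutation test, p = 0.168, adjusted p = 0.288). Nedd1 averaged 1.21 FPKM in lMZ. The lMZ over VZ gap of 1.14 was 1.70 with a pseudocount of 0.1 and 0.36 with a pseudocount of 5.

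**Figure D4:**
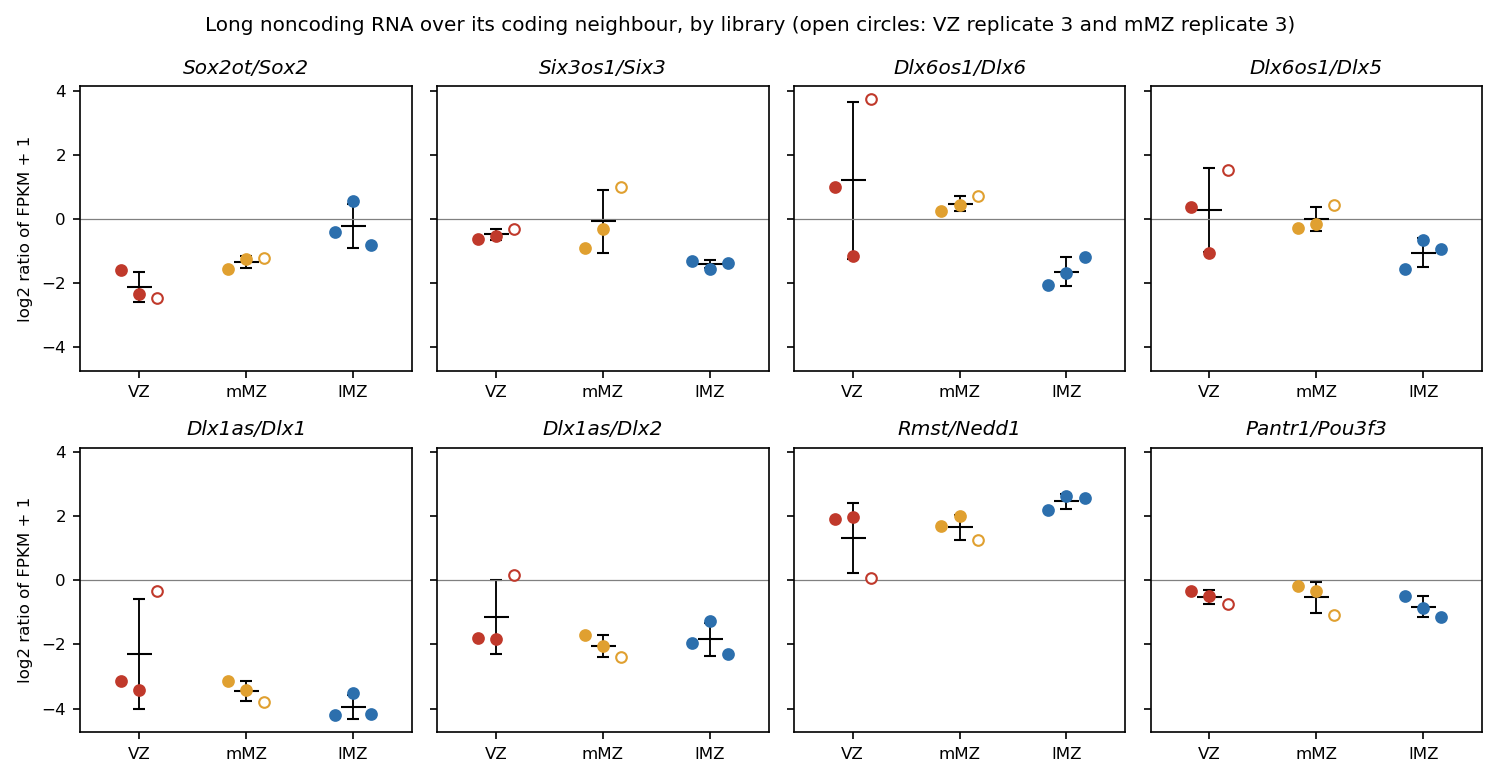
Log2 ratio of each lncRNA to a coding neighbour in the 9 libraries by zone, with circles for libraries and black bars for the mean and SD of 3. For Sox2ot the ratio was lowest in VZ (-2.14) and highest in lMZ (-0.22), and for Pantr1 it was between -0.51 and -0.83 in mean in all zones.

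Beyond the members, 17 other neural lncRNAs were tested. For VZ over lMZ, 5 were higher and none lower, against 10.7% and 8.93% of all genes, with a median of 0.48. For mMZ over lMZ 2 were higher and none lower, against 3.58% and 0.543% of all genes. Sox1ot, which surrounds Sox1 as Sox2ot does Sox2, was higher in VZ than in lMZ by 3.01 (limma adjusted p = 0.00336) and in mMZ than in lMZ by 3.72 (adjusted p = 0.00327). The imprinted lncRNA H19 was higher in both as well (1.39, adjusted p = 0.0201, and 1.63, adjusted p = 0.0255). Meg3, more abundant than Miat, did not pass (-0.39 for VZ over lMZ, adjusted p = 0.446).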

How the data were processed

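Messenger RNA libraries of 9 samples were sequenced as 100 bp pairs, per the labels' protocols. The authors deposited a single FPKM table, with 1 value for each gene in each library. Bowtie2 2.1.0 and mm10 (GRCm38) appear in the submitters' processing notes, which name no program for the FPKM step. The table had 38370 rows. After 42 exact repeats were dropped, 133 more rows carried a symbol already present, and of these only the row of highest mean stayed.

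As FPKM are not counts, zones were compared with limma (3.58.1, under R 4.3.3) on log2(FPKM + 1), a scale that shrinks the changes of low genes. All 9 libraries entered 1 fit with an intensity trend. A gene needed 1 FPKM or more in 3 libraries, which 14004 symbols met and 24191 did not. Two-sided p-values received a Benjamini-Hochberg adjustment across every tested gene, and a call meant an adjusted p under 0.05. Ratios of lncRNA to neighbour were tested by exact permutation, and the fit was tested on simulated data.

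Depth was inferred from the step between low FPKM values, so implied fragments are estimates. Neighbours were coding genes overlapping a member or, failing that, nearest within 100 kb, plus paired transcription factor genes and Nedd1. A neighbour and a gene of the Dlx list are not reported here, and the neighbour's pair stayed among the 12 over which ratio p-values were adjusted. Likeness was taken among genes reaching a mean of 5 FPKM in some zone. Each gene list contributed at most 4 passing genes (largest changes) and 2 others (highest levels). Pspc1 was added for its opposite direction. Members and lists were chosen with earlier results of these data known. Alternatives covered the pseudocount, filter, scaling, trend, library weights, zones in the fit, replicate block and libraries left out. Positions come from GENCODE M21 and promoter windows from RefSeq GRCm38.p6, where 5 members had one.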

Additional observations from a re-analysis of the deposited data

How the results depend on the processing

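Counts of calls depended most on library weights and on which libraries were in the fit, and the cause was not tested. By limma with all 9 libraries, 0 genes passed for VZ over mMZ, 2750 for VZ over lMZ, 577 for mMZ over lMZ and 1504 by the F test, and 0, 4, 2 and 3 of the 9 lncRNAs. With library weights the counts were 2761, 6800, 3700 and 6689 genes and 7, 8, 8 and 9 lncRNAs. With only the zones compared in the fit, 1684 genes and 2 lncRNAs passed for VZ over lMZ, and 2027 genes and 6 lncRNAs for mMZ over lMZ. VZ over mMZ called 5 genes with a pseudocount of 5, 4 with a filter at 5 FPKM and 9 with quantile normalization. Without a filter the F test called 900 genes and 1 lncRNA.

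Leaving out libraries gave 0 to 571 genes and 0 to 1 lncRNAs for VZ over mMZ, 959 to 3958 genes and 1 to 7 lncRNAs for VZ over lMZ, 207 to 1760 genes and 1 to 5 lncRNAs for mMZ over lMZ, and 369 to 2894 genes and 0 to 7 lncRNAs by the F test. The number of lncRNA and neighbour pairs with unequal ratios was 1, and 0 to 5 over these fits.

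Of 1200 single differences recomputed, 1051 kept their direction and side of the threshold, 59 lost the call, 64 gained it and 26 changed sign, none of them called with all libraries. Dlx1as for VZ over mMZ was -0.04, 0.0593 with a pseudocount of 5, 0.0171 with trimmed mean scaling, and -1.28 to 0.62 over the libraries left out. In the same comparison those ranges were -0.0161 to 0.52 for Rmst, -0.19 to 0.57 for Sox2 and -0.18 to 0.24 for Ralgapb, which was 0.25 with library weights. For VZ over lMZ, Six3 was -0.0768 with quantile normalization and -0.30 to 0.49 over libraries left out, and Dlx5 was -0.0306 with quantile normalization, -0.36 with library weights and -0.15 to 0.36. For mMZ over lMZ the range was -0.52 to 0.30 for Malat1.

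Replicate numbers were checked for pairing, and the deviations of same-numbered libraries correlated from -0.098 to 0.249, not above 0.1 in every pair, so the numbers were not taken as pairs. In 11 of 18 comparisons the own number was highest, a hint from the data and not the design, and both shallow libraries carry number 3. With a replicate block, 2901 genes and 6 lncRNAs passed for VZ over lMZ, 703 and 3 for mMZ over lMZ, 0 and 0 for VZ over mMZ, and 1585 and 4 by the F test. With the block Six3os1 (limma adjusted p = 0.039) and Pantr1 (0.0117) passed for VZ over lMZ, and Dlx6os1 (0.0491) and Nedd1 for mMZ over lMZ, where Dlx5 no longer did. The median mMZ over lMZ difference of all genes was 0.101 as deposited and 0.0109 with trimmed mean scaling, so differences of that comparison include a shift of this size. Depth limits Neat1, Dlx1as, Rmst, Pantr1 and Snhg11 in VZ replicate 3 and mMZ replicate 3, and the neighbour Dlx6 in VZ replicate 3. Six3os1 (29.7) and Sox2ot (34.2) also had few implied fragments in VZ replicate 3, against 34.7 for Rmst in mMZ replicate 3.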

Other observations

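Of 10 tested small nucleolar RNA host genes other than Snhg11, none passed in any zone comparison by limma, with median differences of 0.23 for VZ over mMZ, 0.05 for VZ over lMZ and -0.26 for mMZ over lMZ. At an unadjusted p under 0.05 there were 3, 2 and 1 of them in these comparisons. Gas5, the most abundant of them, had a VZ over lMZ difference of 0.31 (limma adjusted p = 0.207) and Snhg5 of 0.25 (adjusted p = 0.426).

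The genes nearest to Sox2ot over the 9 libraries, by root mean square difference of centred log2 values among 9754 candidates, were Dbi (0.371), Mmp14 (0.404) and Insm1 (0.436), a zinc finger factor of newborn neurons, while Sox2 ranked 684th. Those nearest to Six3os1 were Crb1 (0.430), Dlx2 (0.462) and Lhx6 (0.502), with Six3 at rank 46. Rmst lay nearest to Ahcy (0.119), Miat to Nr1h2 (0.244), Malat1 to Zfp74 (0.224) and Snhg11 to Jakmip1 (0.322). Frmd8, beside Neat1 on chromosome 19, was higher in VZ than in lMZ by 1.49 (limma adjusted p = 0.00971), while Malat1 did not pass.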
